A study of Mus musculus with 2 samples.

Results

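The sirtuins are the 7 mammalian enzymes related to the yeast silencing protein Sir2, and their genes Sirt1 to Sirt7 were followed here in AgRP neurons of FoxO1 KO and FoxO1 heterozygous KO mice. Members were chosen by name, as the probe sets that the platform annotation pairs with a single symbol from Sirt1 to Sirt7. This gave 100 probe sets for 7 genes, of 318760 probe sets with 1 symbol and 22296 symbols in all. A probe set is a short group of probes read as 1 value on an exon-level array, so a gene had from 9 (Sirt4) to 23 (Sirt2) of them.

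AgRP neurons are cells of the arcuate hypothalamus that release agouti-related peptide and neuropeptide Y and promote feeding. One array held cells labelled FoxO1 KO and the other, which served as the control, cells labelled FoxO1 heterozygous KO, so by these labels the heterozygous cells too carried a disrupted copy of FoxO1. All cells came by FACS from mice of mixed genetic background, matched with littermates for age and sex. There was 1 array per genotype, and the labels name neither the number or age of the mice, nor the promoter that drove the deletion, nor the marker used for sorting. No test is therefore possible and no p-value is given. Of the 7 genes, Sirt2 was lower in KO cells by over 2-fold and the other 6 differed by far less.

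Sirtuins remove acyl groups from lysines and consume NAD+ as they do so, which ties their activity to the energy state of the cell. FoxO proteins are among their substrates: SIRT1 and SIRT2 deacetylate FoxO1, and SIRT1 in AgRP neurons has been linked to feeding in mice. SIRT1, SIRT6 and SIRT7 are mainly nuclear, SIRT2 is mainly cytosolic, and SIRT3, SIRT4 and SIRT5 act in mitochondria. In the brain SIRT2 is best known from oligodendrocytes, where it is a constituent of myelin.

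Values are on a log2 scale, on which 1 unit is a 2-fold step. Of the 100 probe sets, 83 reached the floor used for gene summaries, a mean over both arrays of at least 5.86, and the other 17 did not. All 7 genes had the 3 such probe sets needed to be evaluated. A gene's level is the median of those probe sets on an array, and its difference is the median of their KO minus heterozygous KO differences. The 2 medians are taken apart, so a gene can stand slightly higher in level and slightly below 0 in difference. The SD given with a difference is over the probe sets of that gene and is not a spread between mice. Probes differ in how brightly they bind, so levels are not ranked between genes.

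Sirt2, the cytosolic deacetylase of alpha-tubulin and FoxO proteins, was lower in KO cells, with a level of 8.95 in KO cells against 10.2 in heterozygous KO cells. Its difference was -1.37, or 2.58-fold lower (SD 0.94 over 22 probe sets). It was the 1 sirtuin of 7 past the 2-fold rule, which asks for a difference of at least 1 in size with at least 75% of probe sets agreeing, and still the 1 member past a 1.5-fold rule. Of all 16639 evaluated genes, 1.12% passed the 2-fold rule as lower and 1.13% as higher (4.9% and 3.28% at 1.5-fold), and 75 genes (0.451%) had a difference below that of Sirt2. Those shares stand for 186 lower and 188 higher genes, which became 127 and 270 once centred on the median gene.

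The Sirt2 probe sets went one way by unequal amounts. Of the 22, 21 were lower in KO cells, against 57.4% of all probe sets with 1 symbol at or above the floor. At least 2-fold lower were 13 (59.1%, against 11% of such probe sets), and at least 4-fold lower were 4 (18.2%, against 2.6%). The largest difference was -3.24, at 6.30 in KO cells and 9.54 in heterozygous KO cells (probe set 4306928). Next came -2.60 (6.88 against 9.47) and -2.53 (7.79 against 10.3).

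At the other end, 4 Sirt2 probe sets differed by no more than 0.2 in either direction. The brightest of all Sirt2 probe sets was one of them, at 11.5 in KO cells and 11.5 in heterozygous KO cells, a difference of -0.06 (probe set 5497152). The single higher probe set stood at 10.1 in KO cells and 9.99 in heterozygous KO cells. The 13 probe sets that were at least 2-fold lower had a median of 7.84 in KO cells and 10.2 in heterozygous KO cells. The remaining 9 had medians of 10.1 in KO cells and 10.2 in heterozygous KO cells. That split was made on the difference itself, so the 13 had to differ more between the arrays than the 9, and the values are a description. Which exons or transcripts these probe sets read is not known here.

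No Sirt2 probe set that entered the summary was dim on either array: the lowest value was 6.30 in KO cells and 8.68 in heterozygous KO cells, both above the floor. The 1 Sirt2 probe set left out as dim had values of 3.64 in KO cells and 4.82 in heterozygous KO cells.

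**Figure D1:**
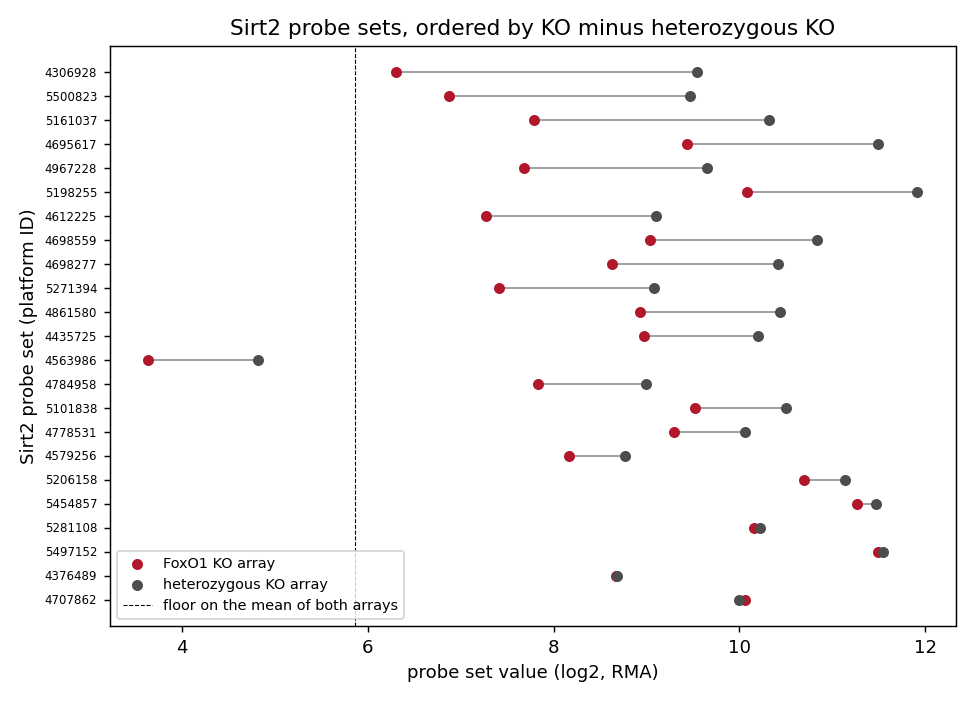
Each row is 1 of the 23 Sirt2 probe sets, named by platform ID, with its log2 value in KO cells (red) and heterozygous KO cells (grey) joined by a line, and rows ordered by the difference. The upper rows are wide apart, the topmost by -3.24, while the lowest rows coincide.

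Sirt1, the nuclear deacetylase of FoxO1, p53 and PGC-1alpha, had a level of 8.24 in KO cells and 8.27 in heterozygous KO cells. Its difference was -0.15 (SD 0.82), with 7 of 10 probe sets lower. A pair of these stood apart, at -1.85 (8.07 in KO cells against 9.92) and -1.47 (8.86 against 10.3), while the other 8 lay between -0.32 and 0.72. The brightest Sirt1 probe set read 10.1 in KO cells and 10.2 in heterozygous KO cells, and the third brightest read 9.26 on both. Bright Sirt1 probe sets thus included the 2 that stood apart and others that hardly differed, and their positions on the gene are not known here. Those 2 were the ones at least 2-fold lower (20%, against 11% of probe sets with 1 symbol at or above the floor).

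The regulatory sequence before the start of a pair of members is shown because Sirt2 had the largest difference of the family between the arrays and Sirt1 is the member most often tied to FoxO proteins. Each run is the 250 bases before the gene's RefSeq start (build GRCm38.p6), 5′ to 3′ on the gene's strand, with the letters CACGTG in capitals.
Sirt1 promoter, chr10:63339036-63339285, minus strand: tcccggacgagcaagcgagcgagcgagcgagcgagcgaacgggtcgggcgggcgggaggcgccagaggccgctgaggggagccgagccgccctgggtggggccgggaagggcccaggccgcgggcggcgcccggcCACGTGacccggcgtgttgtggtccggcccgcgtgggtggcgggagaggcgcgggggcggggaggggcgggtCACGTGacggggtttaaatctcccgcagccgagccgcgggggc
Sirt2 promoter, chr7:28766502-28766751, plus strand: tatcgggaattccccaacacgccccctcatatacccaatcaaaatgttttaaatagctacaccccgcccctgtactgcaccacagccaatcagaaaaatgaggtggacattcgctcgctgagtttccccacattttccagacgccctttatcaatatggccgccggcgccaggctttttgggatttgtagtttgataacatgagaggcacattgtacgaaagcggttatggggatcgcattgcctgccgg
All 7 genes had an entry in the RefSeq promoter table, with 9 starts between them. The FoxO core TGTTTAC, searched on both strands, was in 0 of the 9 windows, against 3.17% of the 32851 windows of the same length in the table. The insulin response letters TGTTTTG were also in 0 of 9, against 5.56%. The E-box CACGTG, a palindrome bound by the circadian factors CLOCK and BMAL1, was found in the Sirt1 window alone, at 115 and 43 bases before the start. Of all windows, 6.02% held it, and 0.429% held it at least 2 times. The Sirt1 window was 79.2% G or C, the Sirt2 window 50.0%, and the median window 52.4%. These matches describe letters in short windows and say nothing of binding.

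Sirt6, a chromatin deacetylase active in DNA repair and the control of glycolytic genes, differed by -0.02 (SD 0.78, 5 of 9 probe sets lower). Its level was 7.22 in KO cells and 6.96 in heterozygous KO cells. Its brightest probe set was nearly level, at 10.3 in KO cells and 10.4 in heterozygous KO cells. The one large value, 2.17, came from a probe set at 7.22 in KO cells and 5.05 in heterozygous KO cells, the second of these under the floor.

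Sirt7, a nucleolar enzyme that supports transcription of ribosomal RNA genes, differed by -0.04 (SD 0.67), with 7 of 14 probe sets lower and 7 higher. Its level was 7.16 in KO cells and 7.01 in heterozygous KO cells. The probe sets ran from -1.38 to 0.90, and 3 of the 14 were at least 2-fold lower (21.4%, against 11% of evaluated probe sets). Of those 3, 2 had a KO value under the floor, at 5.58 and 5.856 against 5.863. Nuclear sirtuins therefore lay close to 0, with probe sets on both sides in each gene.

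**Figure D2:**
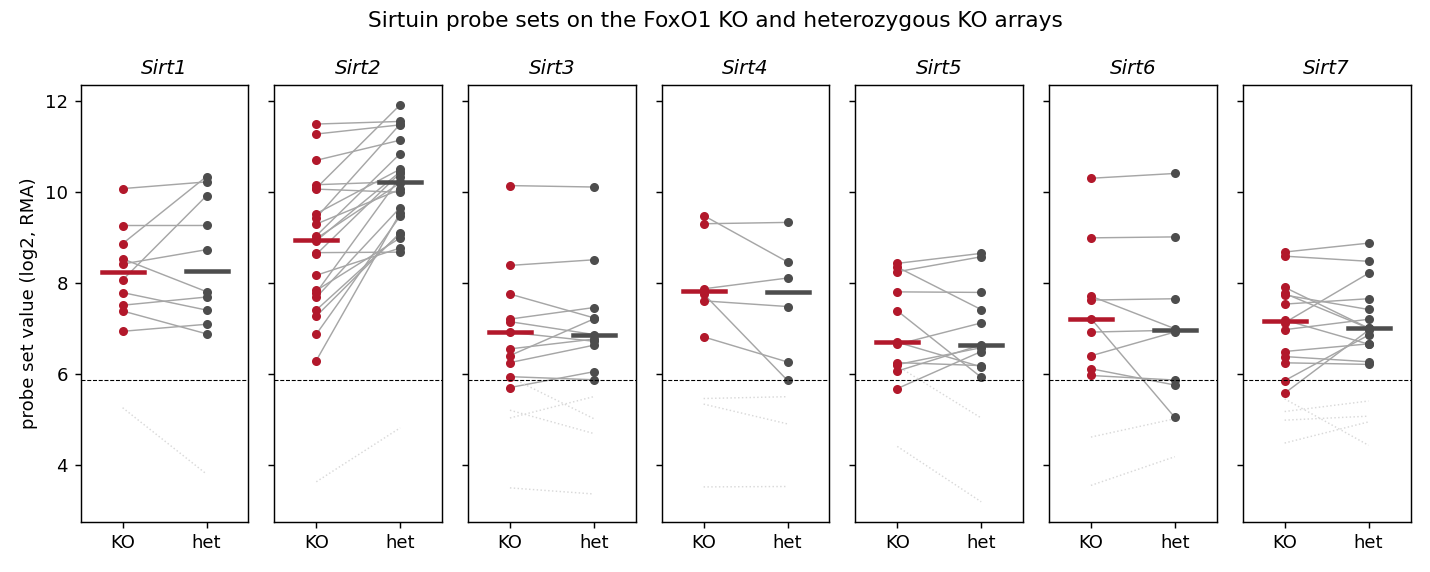
Each panel is 1 sirtuin gene, each point a probe set at or above the floor (log2 value) in KO cells (left, red) or heterozygous KO cells (right, grey), with lines joining the same probe set, bars at the gene's level, dotted lines for probe sets under the floor and a dashed line at the floor of 5.86. The Sirt2 lines climb toward the heterozygous KO side and its bar stands at 8.95 against 10.2, while the bars of the other genes are at nearly the same height on both arrays.

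Sirt3, the main deacetylase of mitochondrial enzymes, had a level of 6.92 in KO cells and 6.87 in heterozygous KO cells. Its difference was -0.12, and it had the tightest probe sets of the family (SD 0.37, 6 of 11 lower). The brightest stood at 10.1 on both arrays, and the differences ran from -0.81 to 0.52. Of its probe sets 0 reached a 2-fold difference in either direction.

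Sirt4, a lipoamidase and ADP-ribosyltransferase that restrains glutamate dehydrogenase, was the 1 member above 0, as 34.8% of evaluated genes were, at 0.34 (SD 0.80, 4 of 6 probe sets higher). Its level was nevertheless 7.82 in KO cells and 7.80 in heterozygous KO cells. The difference rested on a few probe sets: 1.90 (7.76 in KO cells, 5.86 in heterozygous KO cells), 1.02 (9.48 against 8.46) and 0.55 (6.82 against 6.27). The first of these had a heterozygous KO value just under the floor (5.861 against 5.863). The brightest of the other 3 was at -0.03. At least 2-fold higher were 2 of the 6, against 9.24% of evaluated probe sets. The value was 0.12 over all 9 Sirt4 probe sets and 0.05 with the floor at the 75th percentile.

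Sirt5, which removes succinyl, malonyl and glutaryl groups, differed by -0.22 (SD 0.69), with 6 of 11 probe sets lower and levels of 6.70 in KO cells and 6.64 in heterozygous KO cells. Its probe sets ran from -0.81 to 1.46, and its brightest read 8.43 in KO cells and 8.65 in heterozygous KO cells. Mitochondrial members thus included the highest difference of the family but none past the 2-fold rule.

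**Figure D3:**
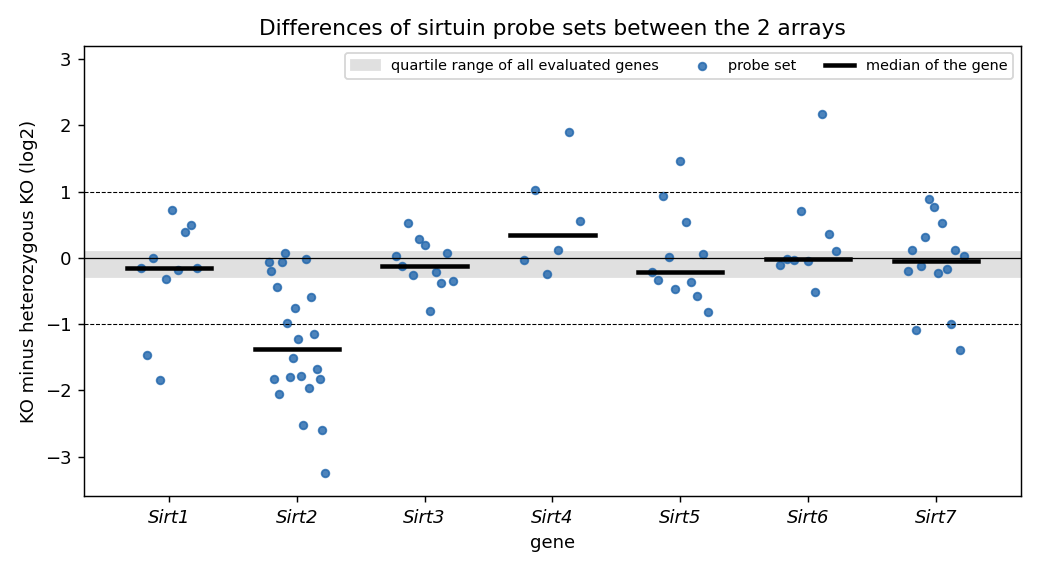
Points are KO minus heterozygous KO differences (log2) of the probe sets at or above the floor, black bars the gene's median, the grey band the range between the quartiles of all evaluated genes (-0.29 to 0.09), and dashed lines mark 2-fold. The Sirt2 bar lies at -1.37, below the 2-fold line, and the other bars lie between -0.22 and 0.34.

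Ordered by difference, the family ran Sirt2, Sirt5, Sirt1, Sirt3, Sirt7, Sirt6 and Sirt4 from lowest to highest. The step between Sirt2 and Sirt5 was 1.15, larger than the SD over probe sets of either gene. Every other step, from 0.02 to 0.36, was smaller than the larger SD of the genes it separates. The family median was -0.12 with Sirt2 and -0.08 over the other 6 genes, beside -0.11 over all evaluated genes. Below 0 were 6 of 7 members, where 65.2% of all evaluated genes were. Centring every gene on the all-gene median, a shift of 0.11, left 4 of 7 below 0, since Sirt6 then stood at 0.09 and Sirt7 at 0.07. Over 9 alternative settings Sirt3, Sirt5, Sirt6 and Sirt7 each stood on both sides of 0, while Sirt1 and Sirt2 stayed below it and Sirt4 above.

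The cell types around AgRP neurons were read from marker lists, because Sirt2 is known from myelin. All 12 evaluated mature oligodendrocyte markers of 14 listed were lower in KO cells, with a median of -1.07, and 7 passed the 2-fold rule. Of all evaluated genes, 65.2% were below 0 and 1.12% passed that rule as lower. Marker levels averaged 7.18 (5.89 to 8.68) in KO cells and 8.44 (6.32 to 9.52) in heterozygous KO cells, all above the floor on both. That is largely built in, because probe sets enter by their mean over both arrays and a bright heterozygous KO value can carry one past the floor. The lowest KO level was that of Aspa, at -0.72 over 3 of 11 probe sets and -0.37 with no floor. With no floor the list median was -1.02 over 13 markers. Mobp, a myelin protein gene, differed by -1.46 and Mbp, the gene of myelin basic protein, by -1.11. The Sirt2 difference lay between them, with 5 of the 12 markers below it and 7 above. Mobp and Mbp are named for that position only, and the list ran from Ugt8a at -2.98 to Ermn at -0.42. All 12 oligodendrocyte precursor markers were lower too, with a median of -0.53, average levels of 7.0 in KO cells and 8.07 in heterozygous KO cells, and 4 below Sirt2. The part of these cells in the Sirt2 difference was not tested. In such bulk samples fewer cells of a type and less RNA per cell cannot be told apart.

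Markers of the sorted neurons lay on both sides of 0. The 12 AgRP neuron markers ran from the ghrelin receptor gene Ghsr at -0.60 to the melanocortin receptor gene Mc3r at 0.52. Their median was 0.12, with 8 above 0, where 34.8% of all evaluated genes were, and 0 past the 2-fold rule. These markers had average levels of 9.60 in KO cells and 9.52 in heterozygous KO cells. Agrp itself stood at 12.4 in KO cells and 12.0 in heterozygous KO cells, and Npy at 12.2 and 12.3 on the same arrays, so the defining peptides of these neurons were bright on both. Medians of the astrocyte, microglia, endothelial and pericyte, and tanycyte and ependymal markers were -0.20, -0.07, -0.37 and -0.17, with 0 genes of these lists at or below the Sirt2 difference. All 8 evaluated endothelial and pericyte markers were below 0 too, as were 8 of 10 astrocyte markers. The same held for 6 of 8 microglia and 6 of 8 tanycyte and ependymal markers. These counts stand beside 65.2% of all evaluated genes below 0, and the list medians beside -0.11 over all evaluated genes. In these lists 0 genes passed the 2-fold rule.

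The other genes of the NAD+ and acylation pathway were taken from 7 lists with 95 genes, of which 87 were evaluated. Of these, 0 passed the 2-fold rule in either direction, their differences ran from -0.87 to 0.83, and their median was -0.13, close to that of all genes. Below 0 were 61 (70.1%, against 65.2% of all evaluated genes). Sirt2 therefore had a lower value than each of them.

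**Figure D4:**
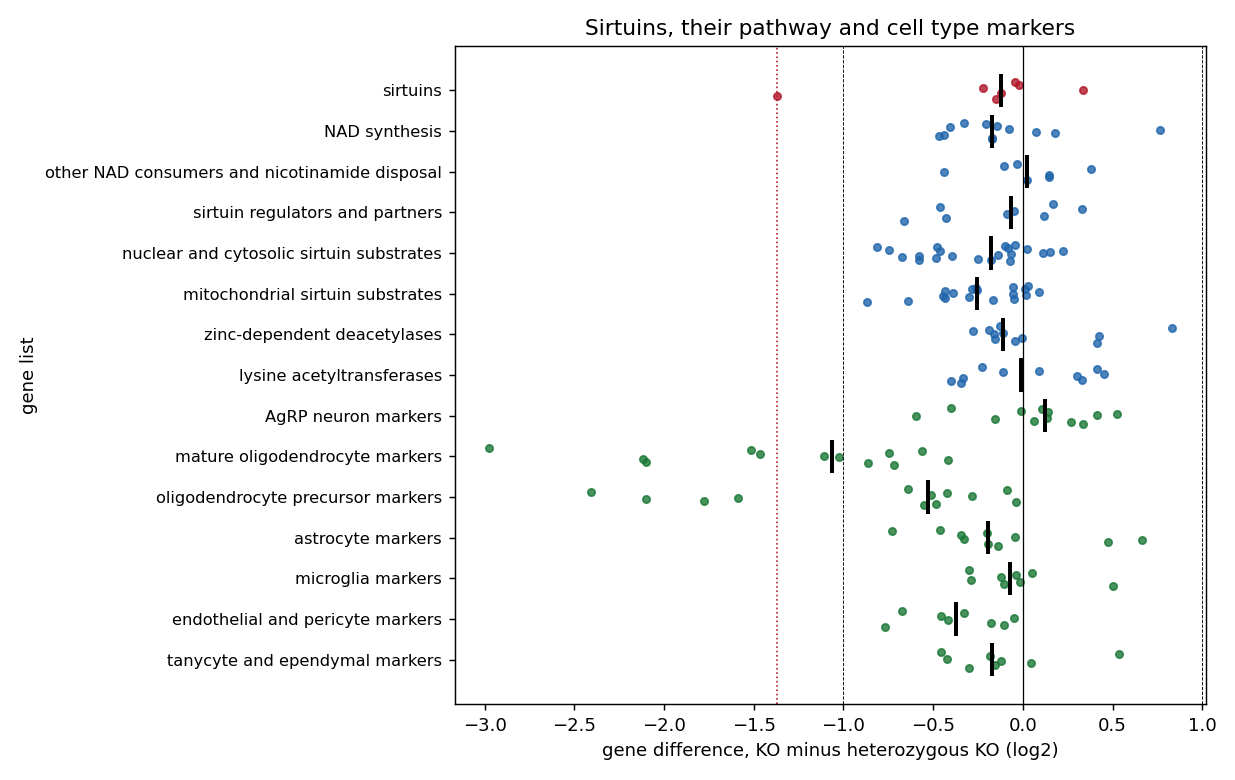
Each point is an evaluated gene's KO minus heterozygous KO difference (log2), by list (sirtuins red, pathway lists blue, cell type markers green), with black bars at list medians, dashed lines at 2-fold and a dotted line at Sirt2. The oligodendrocyte lists alone hold points to the left of the Sirt2 line, 5 and 4 genes.

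NAD+ synthesis genes had a median of -0.17 over 12 of 16 listed, with 9 below 0, but 0.03 with the floor at the 75th percentile. The highest was Nampt, the rate-limiting enzyme of NAD+ salvage from nicotinamide, at 0.76 (SD 1.08, 8 of 13 probe sets higher), with 9.14 in KO cells and 8.47 in heterozygous KO cells. The lowest was Kmo, an enzyme of NAD+ synthesis from tryptophan, at -0.47 (SD 0.61), although its levels were 6.53 in KO cells and 6.51 in heterozygous KO cells. That value rests on 6 of 24 Kmo probe sets, and over all 24 the difference was -0.09. Other NAD+ consumers and genes of nicotinamide disposal had a median of 0.02 over 7 of 8 listed, as Cd38 had no probe set of 1 symbol. Among them were the poly(ADP-ribose) polymerases Parp1 at -0.44 (17 of 22 probe sets lower) and Parp2 at 0.38 (9 of 16 higher). Among the evaluated genes, neither those of NAD+ synthesis nor those of its other consumers thus showed a member past 2-fold. Nmrk1, Nadk2, Slc25a51 and Tdo2 of the synthesis list were not evaluated.

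Regulators and partners of sirtuins had a median of -0.07 over 8 genes, 5 of them below 0, where 65.2% of all evaluated genes were. Rps19bp1, which encodes the SIRT1 activator AROS, was highest at 0.33 (5 of 7 probe sets higher), and the transcriptional repressor gene Bcl6 was lowest at -0.66 (5 of 7 lower). Ccar2, which encodes the SIRT1 inhibitor known as DBC1 and was named after its value was seen, stood at 7.96 in KO cells and 8.59 in heterozygous KO cells, a difference of -0.43 (21 of 27 probe sets lower).

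Nuclear and cytosolic substrates had a median of -0.18, beside -0.11 over all evaluated genes, with 17 of 21 below 0. Foxo1, the deleted gene, was at -0.48, with 7.46 in KO cells against 7.98 in heterozygous KO cells, and it is not known here which of its probe sets the deletion removes. Its SD was 0.53, with 8 of 8 probe sets lower. Its relatives were Foxo3 at -0.68 (SD 0.78, 10 of 12 lower), Foxo4 at -0.58 (SD 0.41, 6 of 9) and Foxo6 at -0.39 (SD 0.32, 9 of 10). The genes of the FoxO proteins were thus all lower by less than 2-fold, where 65.2% of all evaluated genes were below 0. They were lower also once centred on the all-gene median. With the floor at the 75th percentile Foxo4 stood at 0.06 over 4 probe sets. Stk11, which encodes the AMPK-activating kinase LKB1, was the lowest of the list at -0.81 (8.22 in KO cells against 9.21, 12 of 15 probe sets lower). Nr1h3, the liver X receptor alpha gene, was highest at 0.22, and stood at -0.24 with no floor. Ppargc1a, the gene of the SIRT1 substrate PGC-1alpha and named after its value was seen, was at -0.74 (SD 0.41) with 12 of 12 probe sets lower, at levels of 7.53 in KO cells and 7.96 in heterozygous KO cells.

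Substrates of the mitochondrial sirtuins had a median of -0.26, with 14 of 18 below 0. Over all evaluated genes the median was -0.11, with 65.2% below 0. The lowest of the list was Acadl, a fatty acid dehydrogenase deacetylated by SIRT3, at -0.87 over 3 probe sets (-0.38 with no floor). The highest was the mitochondrial ribosomal gene Mrpl10 at 0.09. Zinc-dependent deacetylases, the other class of lysine deacetylases, had a median of -0.11 over 11 genes. Hdac6, which like SIRT2 deacetylates tubulin, was the lowest of them at -0.28 (17 of 29 probe sets lower), with 7.59 in KO cells and 8.15 in heterozygous KO cells. Hdac8 was highest at 0.83 (7 of 9 higher). The 10 lysine acetyltransferase genes, which counter both classes, had a median of -0.01, from Ep300 at -0.40 to Kat5 at 0.45.

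Likeness to the sirtuins was read as the nearest difference among the evaluated pathway genes, a single number from 2 arrays. The nearest gene to Sirt1 was Hdac11 at -0.16, to Sirt3 Hdac9 at -0.13, to Sirt4 Rps19bp1 at 0.33, to Sirt5 Kat8 at -0.23, to Sirt6 Sarm1 at -0.03 and to Sirt7 Xrcc6 at -0.04, each within 0.02. For Sirt2 the nearest was Acadl, 0.50 away.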

How the data were processed

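Gene expression was measured on 2 exon-level arrays, 1 of FoxO1 KO and 1 of FoxO1 heterozygous KO AgRP neurons, grouped by the genotype label. The authors deposited 1 value per probe set, which its range shows to be on a log2 scale. RMA and Partek are named, without versions, per the submitters' processing notes. RMA as usually run gives both arrays 1 distribution, so a change in total RNA would not show. The medians were 5.85 on both arrays, and the arrays correlated at r = 0.920 over 1235936 probe sets.

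Gene differences are medians over probe sets with 1 symbol, at or above the median probe set mean (5.86), for genes with at least 3 of them. Older symbols were matched through RefSeq synonyms (GRCm38.p6), 8 of 164 evaluated list genes. With 1 array per genotype there was no test, and the number of arrays limits every value. Named are all sirtuins, the FoxO genes, and each pathway list's highest and lowest member, since none passed the 2-fold rule. Marker genes were named outside this rule, and Mobp and Mbp for values on either side of Sirt2. Ccar2 and Ppargc1a were added after their values were seen. The members and the 15 lists were chosen with earlier results of these data known. The oligodendrocyte lists share genes with lists whose differences had been seen. Computations used Python 3.11.15, numpy 2.4.6 and pandas 2.3.3, and figures matplotlib 3.10.9.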

Additional observations from a re-analysis of the deposited data

How the results depend on the processing

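The Sirt2 difference stayed between -1.37 and -1.22 over 9 alternatives (the floor removed or set at the 75th percentile, means in place of medians, a minimum of 1 or of 5 probe sets, the trend on level removed, quantile normalization repeated, centring on the median gene, probe sets of several symbols added), and it was the 1 sirtuin called in each and also with a 1.5-fold rule or no rule on agreement. Some of these alternatives could not change the Sirt2 difference. A minimum of 1 or of 5 probe sets leaves every sirtuin as it was, since each had at least 6. For Sirt2 the floor at the 75th percentile and the added probe sets of several symbols left 22 probe sets in use, at -1.37. Centring only shifts each gene by 0.11. Sirt1 stayed below 0, from -0.25 to -0.04, and Sirt4 above 0, from 0.05 to 0.55. The others lay on both sides: Sirt3 from -0.12 to 0.03, Sirt5 from -0.22 to 0.02, Sirt6 from -0.03 to 0.29 and Sirt7 from -0.10 to 0.11. Medians of 5 of the 7 pathway lists also lay on both sides of 0: NAD+ synthesis from -0.17 to 0.03, other NAD+ consumers from -0.10 to 0.13, regulators from -0.11 to 0.04, acetyltransferases from -0.21 to 0.10 and zinc-dependent deacetylases from -0.12 to 0.0015, while both substrate lists stayed below 0. Of the marker lists, the microglia median alone lay on both sides (-0.17 to 0.04). Over all genes, 188 were called higher and 186 lower, a split that moved to 270 and 127 when centred on the median gene and to 227 and 149 with the trend on level removed. With at least 1 probe set the counts were 338 and 329 over 20521 genes in place of 16639, and at 1.5-fold 545 and 815, as a larger pool and a smaller threshold give by construction. No paired analysis was possible because each genotype had a single array, so no replicate could be left out either.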
